A study of Mus musculus with 60 samples.

Results

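The response to P3C of mouse bone marrow-derived macrophages labelled Atf3-deficient (ATF3-/-) was measured on 6 of the 60 Illumina BeadChip arrays of the series, 3 of cells given P3C and 3 of unstimulated control cells (con), chosen by their genotype and condition labels. P3C is a synthetic triacylated lipopeptide that stimulates the receptor TLR2. It was given at 50 ng/ml for 4 h, and the labels state a stimulation period of 10 h for every group. The groups set beside it were the same macrophages given 100 nM CpG for 4 h, a DNA ligand of TLR9, and macrophages labelled WT with P3C and without it, with 3 arrays each. None of these arrays received the high-density lipoprotein that other arrays of the experiment did.

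M-CSF, the growth factor that turns bone marrow cells into macrophages, was present at 40 ng/ml during 6 d of culture of every group. The growth protocol names wild-type C57BL/6 mice of 6 to 8 weeks as the source of the marrow. Of the marrow labelled Atf3-deficient the labels give only the genotype and the strain C57BL/6, so neither the allele nor the age of those animals is known here. The labels do not tell whether replicate arrays stem from different animals or cultures, so the spread between replicates may be technical. The p-values rest on that spread pooled over all 36 arrays of the experiment, those given the lipoprotein included.

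TLR2 pairs with TLR1 or TLR6 at the cell surface and signals through the adaptors TIRAP and MYD88 to the IRAK kinases and TRAF6, which release NF-kB from its inhibitors and activate MAP kinases and AP-1. In macrophages the NF-kB and AP-1 targets are cytokines, chemokines, surface receptors and the feedback inhibitors that later shut the pathway down. ATF3 is a stress-induced factor of the ATF family that represses many Toll-like receptor targets, and interferon-stimulated genes are driven mostly through a separate arm that makes interferon-beta and signals through its receptor.

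Macrophage identity was clear on all 6 arrays, and the targeted gene did not separate the labels in the direction a deletion would. All 10 macrophage markers were detected on every array, with a summed signal of 76938 to 83960 after P3C and of 74126 to 83264 in control cells. Atf3 had log2 signals of 12.05, 11.65 and 11.94 after P3C, against 12.75, 12.91 and 12.37 in control cells, so the groups did not overlap and the P3C arrays were lower. The change was -0.80 ± 0.17 (log2, SE) with an adjusted p of 0.000216. Macrophages labelled WT had 11.41, 10.88 and 11.26 after P3C and 11.12, 11.28 and 11.20 in control cells. Atf3 signal was therefore higher in control cells labelled ATF3-/- than in control cells labelled WT, by 1.47 on the log2 scale, and by 1.71 and 1.09 within the 2 chips that held both groups. Where in the gene this probe lies is unknown here, and a probe outside a deleted part checks nothing, so the cells are called by their label throughout.

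P3C arrays had fewer detected probes than control arrays, 27.6% to 28.2% of all probes against 30.3% to 30.8%. Mean correlations within a group ran from 0.988 to 0.990 after P3C and from 0.992 to 0.995 in control cells. Markers of dendritic cells and of T and NK cells were detected on none of the 6 arrays, 8 genes each. The summed signal of 11 neutrophil markers was 354 to 430 after P3C and 257 to 271 in control cells, with S100a9, Ltf, Ngp, Mpo and Elane detected on no array. S100a8 was detected on all 3 P3C arrays and Camp on 2 of them, and neither on a control array. Of the B cell markers only Cd79b was detected, on all 6 arrays, and it was lower after P3C (-0.75). A fibroblast marker sum of 1429 to 1641 after P3C and 1627 to 1700 in control cells stood above the 676 to 785 and 619 to 690 of the same conditions in macrophages labelled WT. The part of these markers in the results below was not tested. The P3C arrays lay on chips 4, 4 and 6 and the control arrays on chips 1, 1 and 2, so no chip held both groups. Where chip enters the fit as a fixed effect, chip differences are therefore estimated through the other groups. In such bulk RNA, fewer cells of a type and less RNA per cell cannot be told apart.

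Of 9213 genes tested, 1982 were higher and 2587 were lower after P3C at an adjusted p under 0.05, 49.6% of all genes, or 21.5% up and 28.1% down. A change of at least 1 on the log2 scale was reached by 649 genes that rose and 817 that fell, 7.04% and 8.87% of those tested and 15.9% together. The arrays of both groups did not overlap for 59.5% of all genes. The median change of all genes was -0.06, and the middle of the distribution lay between -0.48 and 0.35. With arrays scaled to a common median in place of quantile normalisation, 828 genes were higher and 2298 lower, and the median of all genes was -0.23. Counts of list members that passed, given below, are to be read against these shares.

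The largest rises were in feedback inhibitors, chemokines, cytokines and acute phase genes. Socs3, a feedback inhibitor of cytokine receptors, had log2 signals of 13.50, 13.52 and 13.72 after P3C, against 6.68, 6.42 and 7.09 in control cells. Its change of 6.86 ± 0.38 (adjusted p = 3.13e-15) was many times the spread between arrays. Cxcl1, a chemokine that attracts neutrophils, had 13.78, 13.88 and 13.26 after P3C, against 7.15, 7.01 and 7.02 in control cells. Cxcl2, a neutrophil chemokine of the same family, had 12.98, 13.12 and 12.51 after P3C, against 6.53, 6.40 and 6.37 in control cells. The groups of both chemokines were far apart, with changes of 6.58 ± 0.27 and 6.44 ± 0.28. Lcn2, the iron-scavenging lipocalin, was not above background in control cells and was at least 39.4-fold higher after P3C (adjusted p = 6.88e-19). The other genes among the 10 largest rises were Il1b (5.94 ± 0.26), the acute phase protein Saa3 (5.82 ± 0.37), the itaconate enzyme Acod1 (5.57 ± 0.32), the lectin receptor Clec4e (5.35 ± 0.26), the phosphatase Dusp2 (5.21 ± 0.17) and the activation antigen Cd69 (5.15 ± 0.26). A second Cd69 probe gave 0.32 with an adjusted p of 0.286.

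The largest falls held several G protein-coupled receptors and signalling genes of resting macrophages. Cxcr4, the receptor for CXCL12, had 5.78, 5.31 and 5.83 after P3C, against 9.93, 9.95 and 9.73 in control cells, a change of -4.23 ± 0.21 (adjusted p = 2.43e-16). Lpar6, a receptor for lysophosphatidic acid, had 7.41, 7.62 and 7.80 after P3C, against 11.51, 11.36 and 11.72 in control cells. Lack of overlap was a condition for naming both genes among the largest falls. The 3 arrays of a group lay within about a log2 unit of each other. Rasgrp3, an exchange factor for Ras, had 5.97, 4.92 and 5.75 after P3C, against 10.60, 10.66 and 10.16 in control cells, a change of -4.93 ± 0.27. Fam214a, Gpr183 (the oxysterol receptor EBI2), the cannabinoid receptor Cnr2 and the quiescence factor Klf2 were not above background after P3C and were at least 23.5-fold, 12.0-fold, 9.12-fold and 9.39-fold lower. A second Fam214a probe fell by 1.68 on the log2 scale, against 5.27 by the first. The remaining falls among the 10 largest were Tmem273 (-4.09 ± 0.22), Tmem86a (-3.95 ± 0.17) and Slc46a3 (-3.85 ± 0.17).

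**Figure D1:**
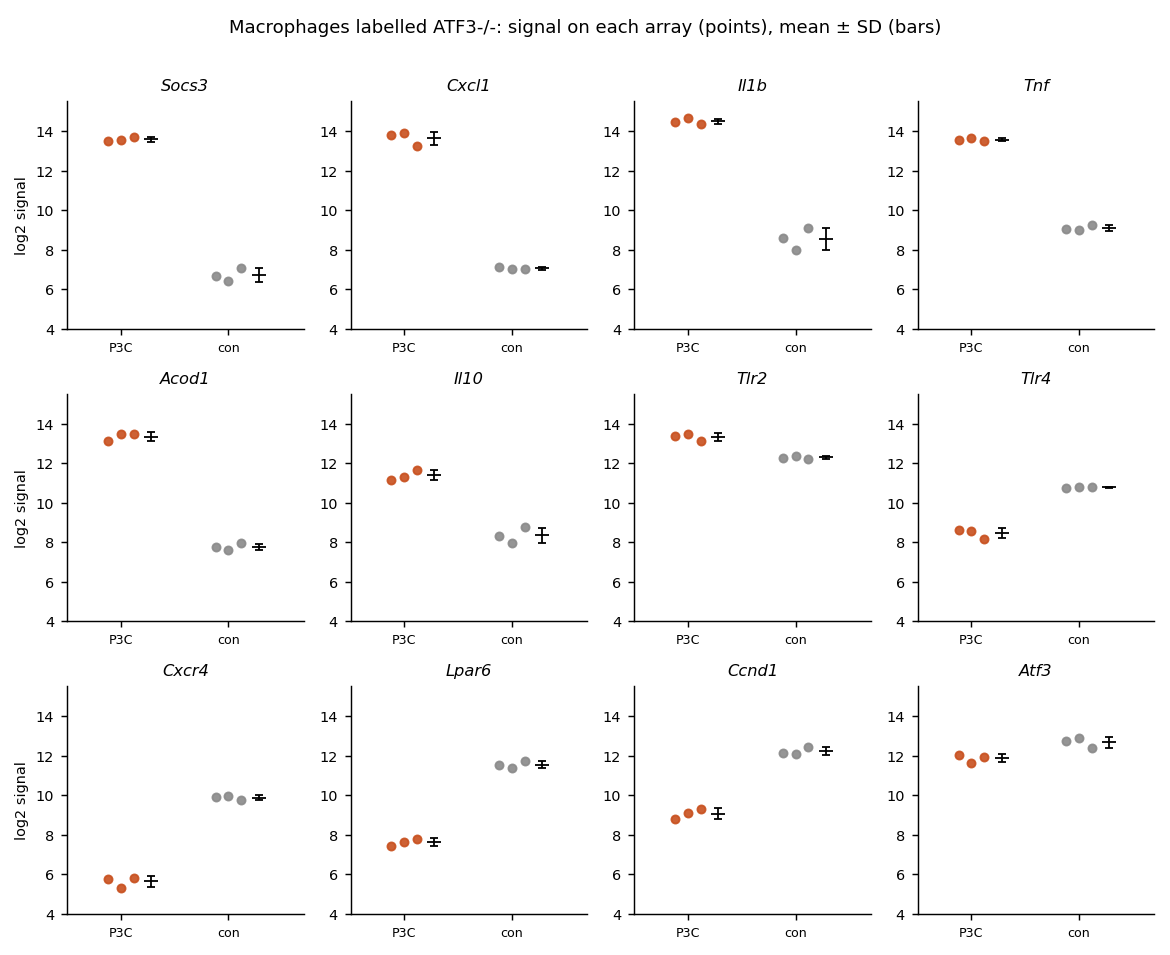
Log2 signal of 12 genes on the 3 P3C arrays (left) and the 3 control arrays (right) of macrophages labelled ATF3-/-, each point an array and each bar the mean with its SD. The P3C and control arrays do not overlap for any of the 12, as was so for 59.5% of all genes tested. For the genes taken from the largest rises and falls this was a condition of choice. Socs3 and Cxcl1 are the genes with the widest gap.

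At the receptor level the TLR2 complex rose and most other Toll-like receptors fell. Of 5 tested genes of the TLR2 complex, 4 rose, with a median change of 1.03. Tlr2 had 13.37, 13.48 and 13.10 after P3C, against 12.28, 12.34 and 12.23 in control cells (1.03 ± 0.16, adjusted p = 2.4e-06). Its partners Tlr6 (1.42 ± 0.11) and Tlr1 (1.37 ± 0.18) and the co-receptor Cd14 (1.02 ± 0.11) also rose, while the scavenger receptor Cd36 had a change of -0.05 that did not pass. Of the 9 other Toll-like receptors and their companions, none rose and 7 fell, with a median of -0.80. Tlr4, the receptor for lipopolysaccharide, had 8.62, 8.59 and 8.18 after P3C, against 10.76, 10.79 and 10.81 in control cells (-2.32 ± 0.14, adjusted p = 2.8e-14). Tlr13, a sensor of bacterial ribosomal RNA, fell by 2.21, Cd180 by 0.83 (1 of its 2 further probes, at -0.40, did not pass) and Tlr7, a sensor of single-stranded RNA, by 0.80 on the log2 scale. Tlr9 was not above background after P3C and was at least 1.3-fold lower.

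Of 21 tested adaptors and kinases below the receptors, 14 rose and 2 fell, with a median of 0.51. Traf1 (3.47 ± 0.13), the adaptor Ticam2 (2.31 ± 0.14), the kinase Ikbke (2.18 ± 0.20) and Map3k8 (1.95 ± 0.14), which activates the MAP kinase ERK, had the largest changes. A second Map3k8 probe gave 0.42 and did not pass. Of the NF-kB and IkB family, 12 of 14 tested genes rose, none fell and the median was 2.06. Nfkbia, which encodes the inhibitor IkB-alpha and is itself a target of NF-kB, had 12.15, 12.43 and 12.35 after P3C, against 8.64, 8.53 and 8.78 in control cells (3.66 ± 0.26, adjusted p = 4.8e-13). The ubiquitin-editing inhibitor Tnfaip3 (3.59 ± 0.20), the atypical IkB protein Bcl3 (3.13 ± 0.17) and the subunit Rel (2.63 ± 0.21) rose with it, Rel by 1.61 without the normexp correction. Cyld and Nfkbid did not pass.

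Promoters from RefSeq (GRCm38.p6), each of 300 bases with 250 before the transcription start and 50 after it, were searched on both strands for a consensus kB site, the sequence that NF-kB binds. A match is a description of the letters and not a shown binding site. Matches were found in 9 of the 12 NF-kB and IkB family genes with a promoter (75%), in 5 of 14 chemokines (35.7%) and in 4 of 11 inflammatory cytokines (36.4%). They were found in 12.1% of the tested genes and in 9.55% of all 27025 genes with a promoter. The promoters of Nfkbia (chr12:55492598-55492897, minus strand) and Cxcl2 (chr5:90903649-90903948, plus strand) are shown with the matching bases in capitals. They are examples from the NF-kB and chemokine lists, and only promoters with a match are shown.
Nfkbia: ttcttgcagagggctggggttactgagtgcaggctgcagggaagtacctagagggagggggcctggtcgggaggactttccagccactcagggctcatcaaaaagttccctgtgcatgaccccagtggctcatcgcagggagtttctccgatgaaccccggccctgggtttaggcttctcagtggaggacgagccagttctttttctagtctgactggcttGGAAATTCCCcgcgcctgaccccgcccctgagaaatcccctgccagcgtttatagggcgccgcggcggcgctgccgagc
Cxcl2: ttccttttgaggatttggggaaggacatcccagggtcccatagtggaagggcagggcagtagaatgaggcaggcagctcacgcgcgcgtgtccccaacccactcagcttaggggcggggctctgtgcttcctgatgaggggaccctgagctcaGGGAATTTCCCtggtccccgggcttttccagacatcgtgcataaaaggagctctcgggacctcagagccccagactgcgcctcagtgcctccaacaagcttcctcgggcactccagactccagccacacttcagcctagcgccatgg
The match in Nfkbia began 29 bases before the start. The capitals in Cxcl2 hold 2 overlapping matches on opposite strands, which began 97 and 96 bases before the start.

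AP-1 and ATF factors, listed together with Cebpb and the early growth response genes Egr1, Egr2 and Egr3, changed in both directions. Of 27 tested, 15 rose and 4 fell, with a median of 0.59 (0.32 to 0.62 over the alternatives). Batf rose by 4.13 ± 0.31, Cebpb, a factor that drives acute phase and cytokine genes, by 1.98 ± 0.11, Junb by 1.87 ± 0.18 and Jdp2, a repressor of AP-1, by 1.82 ± 0.20 (1.11 without the normexp correction). Atf3 was among the 4 that fell, with Fos (-1.26 ± 0.19), Egr1 (-0.58 ± 0.21) and Egr3, which was not above background after P3C. Of 13 MAP kinase phosphatases and regulators of mRNA decay, 7 rose and 3 fell. The phosphatase Dusp16 rose by 3.30 ± 0.12 and the nuclease Zc3h12a, which cleaves cytokine mRNAs, by 2.90 ± 0.13, while Dusp6, a phosphatase of ERK, fell by 2.76 and the mRNA decay factor Zfp36l1 by 2.24.

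Inflammatory cytokines rose as a group, 11 of 15 tested with none lower and a median of 1.78. Il1b had 14.45, 14.64 and 14.37 after P3C, against 8.60, 7.98 and 9.07 in control cells (5.94 ± 0.26, adjusted p = 8.52e-18). Tnf had 13.52, 13.67 and 13.50 after P3C, against 9.03, 8.97 and 9.25 in control cells (4.48 ± 0.24, adjusted p = 9.1e-16). Il6 had 7.69, 8.14 and 7.22 after P3C, against 4.49, 4.57 and 4.35 in control cells, where it was not above background, so it was at least 5.5-fold higher. The P3C and control arrays of all 3 cytokines did not overlap, as was so for 59.5% of all genes. Edn1, the vasoconstrictor peptide endothelin-1, and Il1a were not above background in control cells and were at least 22.9-fold and 10.1-fold higher. The count of 11 includes Edn1, which is not a cytokine, and Il12a, which passed but was not above background in either group. Vegfa, Il15, Csf1 and Csf2 did not pass, and Il12b had no probe with its symbol.

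Feedback cytokines and inhibitors moved with them, 7 of 11 higher and 1 lower, with a median of 1.62 (1.03 to 2.12 over the alternatives). Il10, the main anti-inflammatory cytokine of macrophages, had 11.17, 11.31 and 11.66 after P3C, against 8.31, 7.98 and 8.76 in control cells (3.03 ± 0.29, adjusted p = 4.0e-10). Il1rn, the antagonist of the interleukin-1 receptor, rose by 4.49 ± 0.19, and the cytokine inhibitor Cish was at least 4.9-fold higher. The receptor subunit Il10rb was the 1 gene that fell (-0.91). Of 19 chemokines, 13 rose and none fell, with a median of 2.02 (1.0 to 2.24 over the alternatives). Besides Cxcl1 and Cxcl2, the membrane-bound chemokine Cx3cl1 rose by 3.94 ± 0.20 (2.54 without the normexp correction) and the monocyte attractant Ccl7 by 3.56 ± 0.25. Ccl5 had 12.49, 12.18 and 12.16 after P3C, against 9.44, 9.26 and 9.05 in control cells (3.03 ± 0.20).

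Receptors for chemoattractants and metabolites split, 6 higher and 9 lower of 20. Gpr84, which senses medium-chain fatty acids, rose by 4.66 ± 0.29 and Hcar2, the niacin receptor, by 2.80 ± 0.25. Cx3cr1, the fractalkine receptor, had 7.26, 7.56 and 7.70 after P3C, against 9.75, 9.57 and 10.09 in control cells (-2.30 ± 0.23, adjusted p = 9.4e-10). The ligand Cx3cl1 thus rose in the same cells in which the receptor fell. P2ry14 (-2.13 ± 0.16) and P2ry6 (-0.87 ± 0.12), receptors for UDP-sugars and UDP, were also lower; they are named here from the whole set of falls in this list after their values were seen.

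Enzymes of itaconate, nitric oxide and prostaglandin synthesis rose in 10 of 15 cases and fell in 3. Acod1, which makes itaconate from an intermediate of the citric acid cycle, had 13.10, 13.46 and 13.46 after P3C, against 7.74, 7.63 and 7.95 in control cells. Ptges, the inducible prostaglandin E synthase, was at least 12.1-fold higher. Ptgs2, the inducible cyclooxygenase, had 6.86, 6.88 and 6.01 after P3C, against 4.40, 4.64 and 4.37 in control cells, at least 2.6-fold higher. The inducible nitric oxide synthase Nos2 was detected on 2 of the 3 P3C arrays and on no control array. Ass1, which recycles citrulline to arginine, rose by 2.50 ± 0.18 (1.45 without the normexp correction) and the mitochondrial superoxide dismutase Sod2 by 2.40 ± 0.12.

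Surface molecules of activated macrophages rose in 17 of 24 cases and fell in 1, with a median of 1.58. The death receptor Fas rose by 3.60 ± 0.14 and the scavenger receptor Marco by 3.53 ± 0.31, beside Clec4e and Cd69 above. The one fall was the beta-glucan receptor Clec7a (-1.55). Of 14 matrix proteases and inhibitors, 8 rose and 2 fell. Mmp13, a collagenase, rose by 4.75 ± 0.21 (3.11 as the mean of its probes) and the membrane-bound protease Mmp14 by 3.16, and Serpinb2, an inhibitor of plasminogen activators, was at least 5.6-fold higher. Of 13 acute phase and complement genes, 7 rose and 1 fell, the copper oxidase Cp by 3.19 ± 0.24.

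Resident macrophage genes, MHC class II genes and lysosomal hydrolases were lower in larger shares than the 28.1% of all genes that fell. Of 24 genes of phagocytosis and tissue residence, 11 fell and 2 rose, with a median of -0.39. Mertk, a receptor for apoptotic cells, had 6.57, 5.90 and 6.43 after P3C, against 9.37, 9.53 and 9.40 in control cells (-3.13 ± 0.23). The lectin Clec10a (-2.08 ± 0.34) and the MERTK ligand Gas6 (-1.63 ± 0.16) fell as well, while the inhibitory Fc receptor Fcgr2b rose by 2.51 ± 0.15, and 1 of its 5 probes, at 0.30, did not pass. Of 11 MHC class II presentation genes none rose and 5 fell, and of 20 lysosomal genes 3 rose and 12 fell. Of 13 inflammasome genes and caspases, 5 rose and 3 fell, among them Casp4 (1.96, or 0.52 by another probe that did not pass) and the DNA sensor Aim2 (-1.34, or -0.54 without the normexp correction). Of 16 apoptosis regulators, 8 rose and 6 fell, with the survival genes Bcl2a1d (2.99) and Bcl2a1b (2.67), near-identical paralogs whose signals may not be separable, at the top. Among the lysosomal genes the acid lipase Lipa fell by 1.45 and the sialidase Neu1 by 0.96.

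Cell cycle genes fell without an exception in direction among those that passed, 21 of 30 lower and none higher, with a median of -0.92 (-1.17 to -0.57 over the alternatives). Ccnd1, which encodes cyclin D1, had 8.77, 9.08 and 9.32 after P3C, against 12.12, 12.09 and 12.44 in control cells (-3.16 ± 0.18, adjusted p = 2.8e-15). The replication factors Mcm2 (-1.97 ± 0.18, or -1.19 without the normexp correction) and Mcm6 (-1.84 ± 0.26) fell, and the activator E2f2 was at least 3.4-fold lower. Of 10 CDK inhibitors and growth arrest genes, 6 rose and 3 fell. Cdkn1a, which encodes p21, had 12.78, 12.85 and 13.13 after P3C, against 11.09, 10.94 and 11.18 in control cells (1.85 ± 0.15, adjusted p = 7.2e-12). Gadd45b rose by 3.48 ± 0.14 and Ier3 by 3.06 ± 0.18, whereas Gadd45g fell by 1.90.

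Metabolic and stress lists held both rises and falls, where 21.5% of all genes rose and 28.1% fell. Of 20 genes of glycolysis and HIF-1 targets, 9 rose and 1 fell, with a median of 0.38, led by the glucose transporter Slc2a1 (2.28). Of 30 subunits of oxidative phosphorylation, 3 rose and 5 fell, and of 21 ribosomal proteins, 1 rose and 3 fell. In the main fit both lists rose and fell in smaller shares than all genes. Over the alternatives, 0 to 3 of the oxidative phosphorylation subunits rose and 0 to 14 fell. For the ribosomal proteins it was 0 to 3 and 1 to 4. Of 17 NRF2 targets, 5 rose and 2 fell, and the list median of 0.06 changed sign in 4 of 17 alternative settings. The cystine transporter Slc7a11 had 10.73, 10.87 and 10.24 after P3C, against 5.55, 5.57 and 5.53 in control cells (5.06 ± 0.20). Hmox1, the haem oxygenase, had 8.45, 10.43 and 10.05 after P3C, against 10.10, 9.65 and 10.47 in control cells, with overlapping groups and an adjusted p of 0.626 (change -0.43 ± 0.67). With the chip as a fixed effect Hmox1 passed at -1.77 (adjusted p = 0.039). Of 16 ATF4 targets, 10 rose and 2 fell, with the chromatin protein Nupr1 at 2.70 and the glutathione-degrading Chac1 at 2.55 (1.24 without the normexp correction). Of 14 LXR targets and efflux genes, 1 rose and 5 fell. The cholesterol exporter Abcg1 had 7.83, 7.42 and 7.13 after P3C, against 9.21, 9.02 and 9.00 in control cells (-1.62 ± 0.18), and Nr1h3, which encodes LXR-alpha, rose by 1.66.

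**Figure D2:**
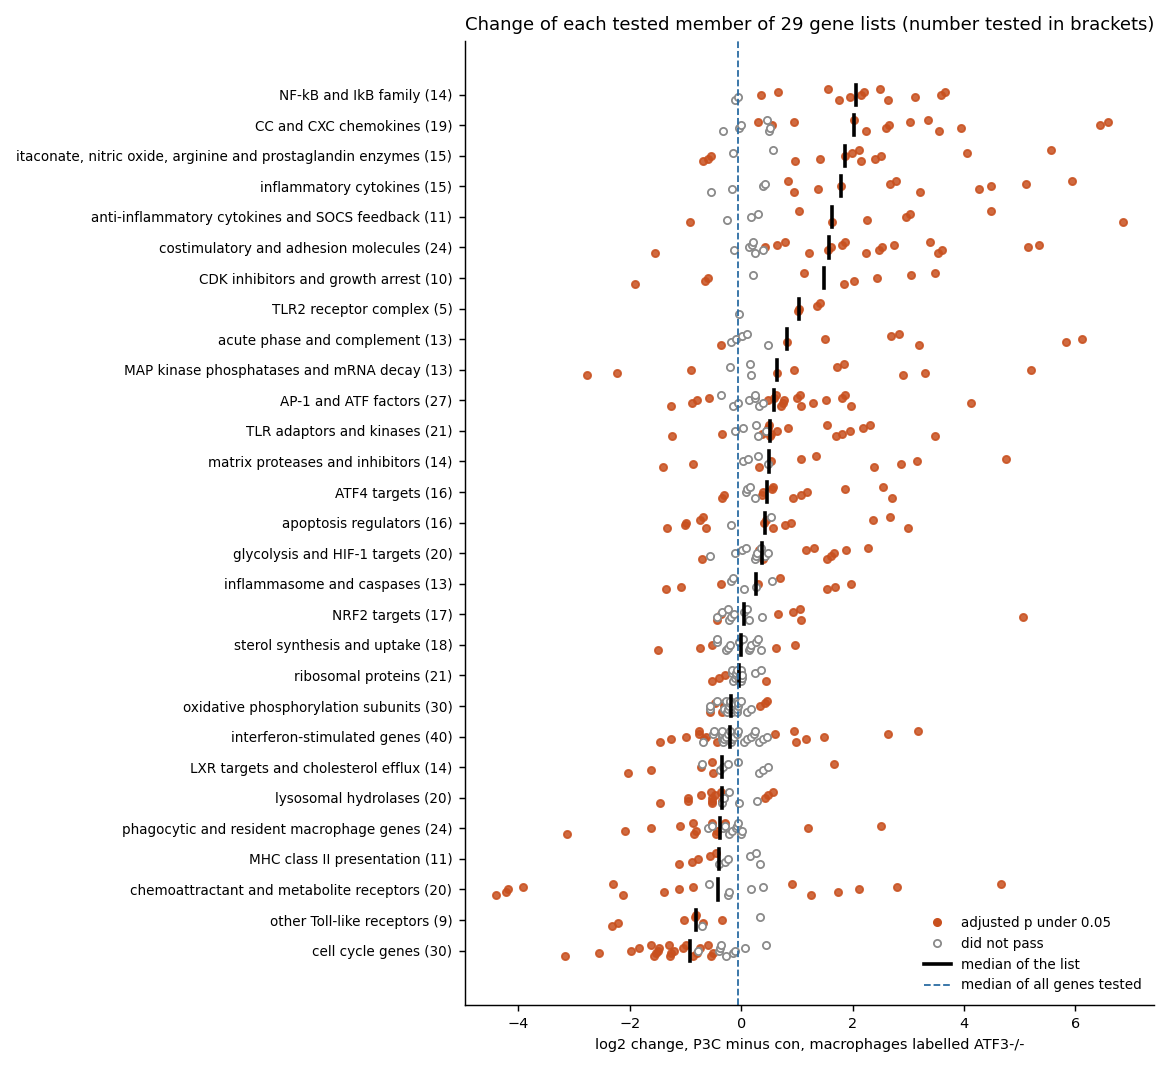
Log2 change after P3C against control of every tested member of 29 gene lists in macrophages labelled ATF3-/-, with filled points for genes that passed, a bar at each list's median and a dashed line at the median of all genes (-0.06). The NF-kB family and chemokine medians lie near 2, the cell cycle median at -0.92 and the interferon-stimulated gene median at -0.19; genes not above background are drawn at their fitted value.

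The response was next compared with that of macrophages labelled WT, to ask which genes changed by a different amount under the 2 labels. Across the 9213 genes both responses ran together (Pearson r = 0.92 across genes, which are not independent replicates). Among genes that passed in both, 3669 of 3688 had the same sign. The difference of both responses passed for 199 genes, 2.16%, of which 75 were positive (0.814%) and 124 negative (1.35%). At an unadjusted p under 0.05 there were 976. The count was 27 with median scaling, 117 with the chip as a fixed effect and 615 with array weights, and no chip held P3C arrays of both labels. No difference passed among the NF-kB family (0 of 14), the inflammatory cytokines (0 of 15) or the cell cycle genes (0 of 30). Lists of this size would hold few or none at the 2.16% of all genes. In alternative settings up to 1 negative difference passed in the NF-kB family and up to 1 in the cell cycle genes. Among the inflammatory cytokines it was up to 2 in each direction. Detected probes made up 27.6% to 28.2% of P3C arrays and 30.3% to 30.8% of control arrays under the ATF3-/- label, against 29.0% to 29.5% and 31.5% to 32.6% under the WT label. The part of this, and of the higher fibroblast marker sum under the ATF3-/- label, in the differences was not tested.

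Interferon-stimulated genes were the list with the most differences. In macrophages labelled ATF3-/-, 7 of 40 rose and 8 fell after P3C, with a median of -0.19 (-0.27 to -0.13 over the alternatives). In macrophages labelled WT, 29 rose and 2 fell, with a median of 0.93, where 21.5% of all genes rose and 28.3% fell (49.8% in all). The difference was negative and passed for 19 and positive for none, with a median of -0.99 that stayed between -1.18 and -0.72 over the alternatives, while the number of negative calls ran from 9 (median scaling) to 30.

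Of these 19 genes, 10 had a change that did not pass under the ATF3-/- label. Mx2, an antiviral GTPase, is the extreme case among them, with the most negative difference of all genes tested. It had 9.95, 9.65 and 9.86 after P3C and 9.42, 9.24 and 9.85 in control cells labelled ATF3-/-. Under the WT label it had 9.73, 9.61 and 10.12 after P3C and 6.46, 6.66 and 6.74 in control cells. The arrays of the P3C groups therefore overlapped between labels, and the control groups did not. The change was 0.32 (adjusted p = 0.138) under the ATF3-/- label and 3.20 under the WT label, a difference of -2.89 ± 0.25 (adjusted p = 1.83e-08). Rsad2, the antiviral enzyme viperin, had 12.04, 11.91 and 12.13 after P3C and 12.21, 11.89 and 12.53 in control cells labelled ATF3-/-. WT-labelled cells had 11.65, 11.67 and 11.79 after P3C and 8.95, 9.47 and 9.53 as control. Its difference was -2.57 ± 0.26 (adjusted p = 3.6e-07), and again the labels were farthest apart in control cells.

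Other members fell under the ATF3-/- label where they rose under the WT label. Ifit2, which binds viral RNA, had 11.52, 11.33 and 11.23 after P3C and 12.82, 12.91 and 12.72 in control cells labelled ATF3-/-. In cells labelled WT the values were 10.29, 10.45 and 10.60 after P3C and 8.95, 9.75 and 9.25 in control cells. The change was -1.46 ± 0.19 under the ATF3-/- label and 1.12 under the WT label, and the difference was -2.59 ± 0.27 (adjusted p = 4.45e-07). Among the 19 genes, 4 others passed in opposite directions too. Under the ATF3-/- label the mitochondrial kinase Cmpk2 changed by -1.26, Ifit3 by -0.99 and the interferon regulatory factors Irf7 and Irf1 by -0.62 and -0.43. Under the WT label Cmpk2 changed by 1.41, Ifit3 by 0.73, Irf7 by 0.59 and Irf1 by 0.91.

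Some genes rose under both labels, by less under the ATF3-/- label. Cxcl10, an interferon-induced chemokine for T cells that was counted with the chemokines and not among the 40, had 10.27, 10.61 and 10.70 after P3C and 8.32, 7.83 and 8.71 in control cells labelled ATF3-/-. Cells labelled WT had 10.69, 10.39 and 10.53 after P3C and 5.61, 6.26 and 6.28 in control cells. The change was 2.24 ± 0.27 under the ATF3-/- label and 4.49 under the WT label, and the difference was -2.25 ± 0.38 (adjusted p = 0.000584), which was -1.35 without the normexp correction. Gbp2, a guanylate-binding protein, rose by 1.49 under the ATF3-/- label, against 2.86 under the WT label (difference -1.37 ± 0.24). A second Gbp2 probe gave 0.27 under the ATF3-/- label and did not pass. Usp18, which removes ISG15 from proteins, rose by 1.16 under the ATF3-/- label, against 3.09 under the WT label. Isg15 itself did not pass under the ATF3-/- label (0.46, adjusted p = 0.255) and had a difference of -2.29 ± 0.47. With the chip as a fixed effect the changes under the ATF3-/- label were -0.21 for Isg15, 0.01 for Mx2 and -0.53 for Rsad2, of which that of Rsad2 passed (adjusted p = 0.043).

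Ifnb1, the interferon-beta gene, was detected on none of the 3 P3C arrays and none of the 3 control arrays labelled ATF3-/-. With the WT label it was detected on all 3 P3C arrays and none of the control arrays. Its difference of -1.46 passed (adjusted p = 0.00287), though the ATF3-/- side holds only values not above background.

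The labels were also compared directly within each condition. In control cells, 36 of the 40 genes were higher under the ATF3-/- label and none was lower, with a median of 1.81, where 6.46% of all genes were higher and 6.77% lower. Within the 2 chips that held control arrays of both labels, the medians were 1.95 and 1.65, and all 40 differences were positive in each. After P3C, 25 were higher and 2 lower under the ATF3-/- label, with a median of 0.76, where 6.32% of all genes were higher and 6.58% lower. Of the 19 genes whose difference passed, 18 were higher in control cells labelled ATF3-/-, and 10 were higher, 2 lower and 7 did not pass after P3C. The median log2 signal of the 40 genes was 10.32, 10.36 and 10.73 on the P3C arrays and 10.41, 10.18 and 10.57 on the control arrays labelled ATF3-/-, against 9.67, 9.72 and 9.80 on the P3C arrays and 8.50, 8.92 and 8.63 on the control arrays labelled WT. The control groups enter both the responses and the comparison of labels, so these values are not independent.

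**Figure D3:**
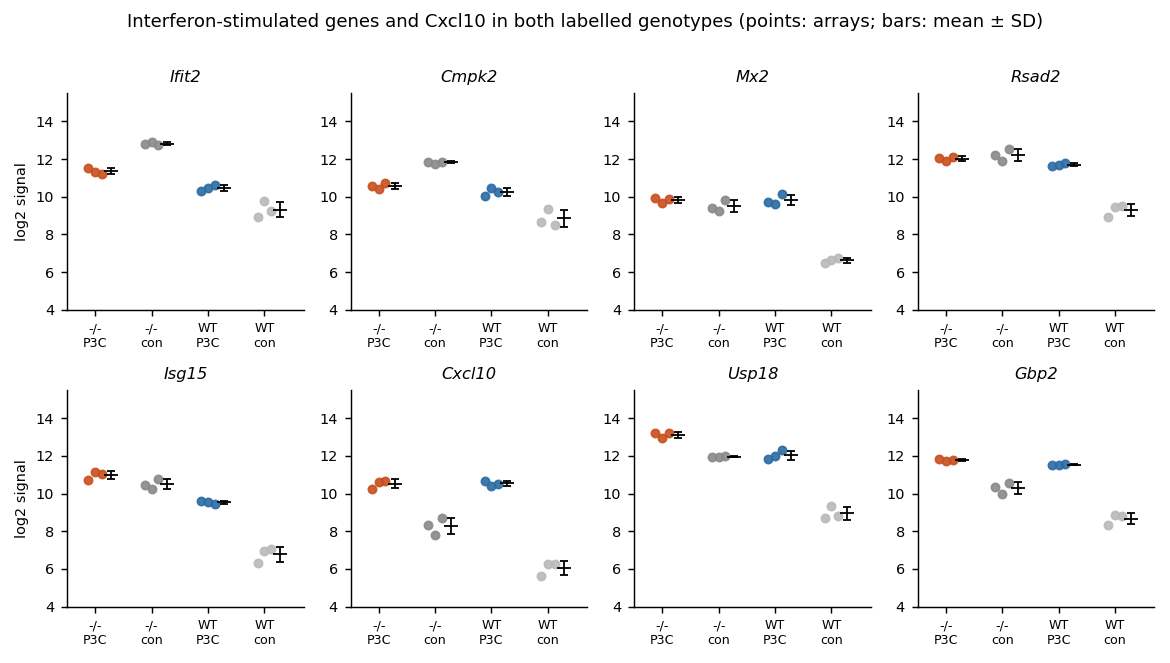
Log2 signal of 8 interferon-stimulated genes in macrophages labelled ATF3-/- after P3C and as control, and in macrophages labelled WT after P3C and as control, each point an array with mean and SD. The WT control arrays are the lowest group for all 8, and for Ifit2 and Cmpk2 the ATF3-/- control arrays are the highest.

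The promoters of these genes were searched for the interferon-stimulated response element, here GAAA followed by any 2 bases and GAAA again, on both strands. A match was found for 18 of the 32 interferon-stimulated genes with a promoter (56.2%), against 3.99% of the tested genes and 3.99% of all genes with a promoter. The share was 8 of 14 among those whose difference passed (57.1%) and 10 of 18 among the others (55.6%), so the letters did not separate the 2 sets. Among all 97 genes with a negative difference and a promoter it was 22.7%, and among 61 with a positive one 3.28%. The cyclic AMP response element TGACGTCA, which ATF factors can bind, was found in none of the 32, against 3.72% of the tested genes and 2.03% of all genes with a promoter. The promoters of Rsad2 (chr12:26456403-26456702, minus strand), Isg15 (chr4:156200769-156201068, minus strand), Ifit3 (chr19:34583279-34583578, plus strand) and Cxcl10 (chr5:92348840-92349139, minus strand) are shown with the matches in capitals. They are examples from the kinds of response above, and only promoters with a match are shown. Cxcl10 is not counted among the 32.
Rsad2: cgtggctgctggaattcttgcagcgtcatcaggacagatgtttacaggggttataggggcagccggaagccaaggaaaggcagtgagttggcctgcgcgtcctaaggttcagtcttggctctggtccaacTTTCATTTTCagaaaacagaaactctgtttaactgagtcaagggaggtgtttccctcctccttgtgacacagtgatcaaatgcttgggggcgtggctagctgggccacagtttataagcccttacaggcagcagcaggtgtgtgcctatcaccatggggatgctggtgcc
Isg15: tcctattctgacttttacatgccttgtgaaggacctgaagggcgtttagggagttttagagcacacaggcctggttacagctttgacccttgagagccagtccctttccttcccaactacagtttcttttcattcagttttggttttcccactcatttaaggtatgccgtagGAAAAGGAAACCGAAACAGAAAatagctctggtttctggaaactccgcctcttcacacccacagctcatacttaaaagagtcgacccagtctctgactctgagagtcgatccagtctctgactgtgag
Ifit3: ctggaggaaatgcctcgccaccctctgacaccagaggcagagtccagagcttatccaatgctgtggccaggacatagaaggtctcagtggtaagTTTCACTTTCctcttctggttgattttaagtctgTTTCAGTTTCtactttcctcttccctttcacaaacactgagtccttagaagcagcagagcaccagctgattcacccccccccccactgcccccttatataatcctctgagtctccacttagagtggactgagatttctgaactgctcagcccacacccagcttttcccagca
Cxcl10: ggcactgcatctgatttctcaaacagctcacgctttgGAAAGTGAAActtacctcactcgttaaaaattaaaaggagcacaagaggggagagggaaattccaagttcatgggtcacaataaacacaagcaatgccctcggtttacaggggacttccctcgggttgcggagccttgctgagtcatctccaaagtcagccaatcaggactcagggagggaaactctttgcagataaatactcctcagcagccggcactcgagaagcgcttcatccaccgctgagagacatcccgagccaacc
The matches began 120 bases before the start in Rsad2, 78, 72 and 66 in Isg15, where they overlap, 156 and 122 in Ifit3 and 213 in Cxcl10.

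Sterol synthesis was the second list with several differences. In macrophages labelled ATF3-/-, 2 of 18 genes rose and 3 fell after P3C, with a median of -0.01 whose sign changed in 4 of 17 alternative settings. The rises were Srebf2 (0.96), which encodes the main activator of these genes, and Hsd17b7 (0.63), and the falls were Dhcr7 (-1.49, or -0.68 without the normexp correction), Msmo1 (-0.74) and Ebp (-0.52). The rise of Srebf2 did not pass with the chip as a fixed effect (0.64, adjusted p = 0.059), nor that of Hsd17b7 with median scaling (0.42, adjusted p = 0.21). In macrophages labelled WT, 11 rose and 2 fell, with a median of 0.47. The difference passed and was negative for 7 genes, with a list median of -0.75 that stayed between -0.91 and -0.40. With median scaling none of the 7 passed, and leaving out single arrays left 3 to 7.

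Cyp51, the demethylase of lanosterol, had 8.75, 8.66 and 8.81 after P3C and 8.51, 8.22 and 8.68 in control cells labelled ATF3-/-. Under the WT label it had 10.50, 10.31 and 10.10 after P3C and 8.47, 8.85 and 8.70 in control cells. In this case the control groups overlapped between labels and the P3C groups did not, with a difference of -1.35 ± 0.33 (adjusted p = 0.0187). Msmo1, a methylsterol oxidase, had 9.51, 9.19 and 9.58 after P3C and 10.15, 10.08 and 10.26 in control cells labelled ATF3-/-. For the WT label the values were 11.08, 11.13 and 11.06 after P3C and 10.88, 10.53 and 10.90 in control cells. It fell under the ATF3-/- label (-0.74 ± 0.13, adjusted p = 1.81e-05) and rose under the WT label (0.33), with a difference of -1.06 ± 0.18. The other 5 were the reductase Hsd17b7 (-0.97), the farnesyl diphosphate synthase Fdps (-1.10), the decarboxylase Mvd (-1.10), the squalene epoxidase Sqle (-0.95) and the lanosterol synthase Lss (-0.70). All 7 were lower under the ATF3-/- label after P3C, and 2 of them also in control cells. Over the 18 genes, 0 were higher and 9 lower under the ATF3-/- label after P3C, and 1 was higher and 3 lower in control cells.

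**Figure D4:**
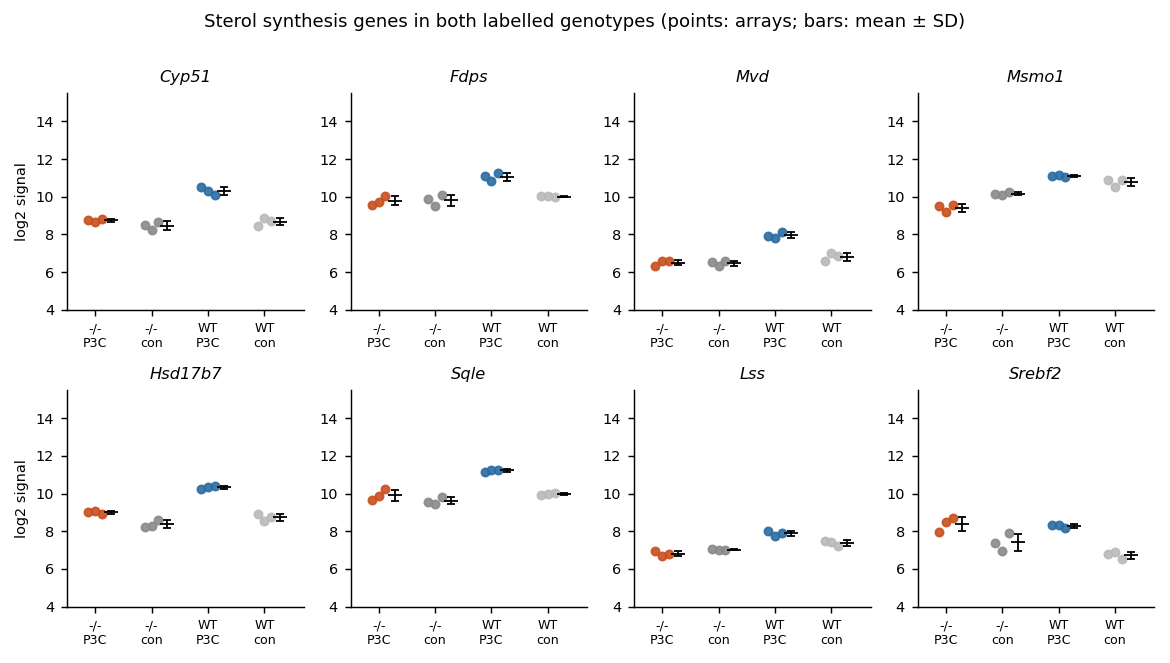
Log2 signal of 8 sterol synthesis genes in macrophages labelled ATF3-/- after P3C and as control, and in macrophages labelled WT after P3C and as control, each point an array with mean and SD. For Cyp51 the 3 WT P3C arrays, from 10.10 to 10.50, lie above all arrays of the other 3 groups.

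Among chemokines, receptors and surface molecules the difference passed for few genes, in both directions. Of 19 chemokines, 3 passed, all negative, Cxcl10 with Ccl3 (-1.34) and Ccl4 (-1.36). Of 20 receptors, Hcar2 (-2.11), the formyl peptide receptor Fpr2 (-1.84) and Ptafr (-0.80) were negative, and Gpr34 (0.91) and Ptger2 (1.11) positive, both fitted values, as neither gene was above background after P3C under either label. Of 24 surface molecules, Cd80 (1.13) and Slamf1 (1.34) were positive and Vcam1 and Cd40 negative, where both positive ones are fitted values of genes not above background in control cells labelled ATF3-/-. The adhesion molecule Vcam1 had 9.21, 8.96 and 8.72 after P3C and 7.44, 7.42 and 7.20 in control cells labelled ATF3-/-. Cells labelled WT had 9.50, 9.52 and 9.78 after P3C and 4.99, 6.65 and 5.20 in control cells, a difference of -2.39 ± 0.41 (adjusted p = 0.000639), which was -1.37 without the normexp correction. The change of Vcam1 under the ATF3-/- label was 1.61, and 0.51 by a second probe. The costimulatory receptor Cd40 rose by 3.40 under the ATF3-/- label, against 5.17 under the WT label, a difference of -1.77. Jdp2 rose by 1.82 under the ATF3-/- label, against 3.65 under the WT label, a difference of -1.83. Tnf rose by 4.48 under the ATF3-/- label, against 5.51 under the WT label, and that difference did not pass.

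Genes with a positive difference mostly fell less or rose more under the ATF3-/- label. Gab1, a docking protein of growth factor receptors, had 7.22, 7.33 and 7.17 after P3C and 7.65, 7.54 and 7.92 in control cells labelled ATF3-/-. Under the WT label it had 6.67, 6.76 and 7.03 after P3C and 9.38, 9.44 and 9.55 in control cells. It fell by 0.47 under the ATF3-/- label (0.79 with median scaling) and by 2.64 under the WT label on the log2 scale, and the difference was 2.17 ± 0.20 (adjusted p = 5.51e-08). Hs6st1, a heparan sulphate sulphotransferase, rose under the ATF3-/- label (1.46) and had a change of -0.13 under the WT label, a difference of 1.59. The transcription factor Klf4 had a fitted change of -0.10 under the ATF3-/- label and of -1.61 under the WT label, where it was not above background after P3C. Its difference without the normexp correction was 0.55. A second Klf4 probe gave -0.54 under the ATF3-/- label and passed, as did the mean of its detected probes (-0.32). The serotonin receptor Htr2b (fitted difference 1.48, or 0.59 without the normexp correction) was detected only on the 3 control arrays labelled WT among these 4 groups. Gfi1, a transcriptional repressor, had 9.18, 9.46 and 9.23 after P3C and was not above background in control cells labelled ATF3-/-, so its difference of 1.63 is a fitted value. Of the 27 genes in the list of AP-1 and ATF factors, which also holds the early growth response genes, Fosl2 (1.24) and Egr2 (1.28) had positive differences and Jdp2 a negative one. Fosl2 rose under the ATF3-/- label (0.71) and fell under the WT label (-0.53). Of 13 phosphatases and mRNA decay genes, Dusp1 (1.27) and Dusp5 (1.33) were positive and none negative, and of 10 growth arrest genes, Gadd45a (1.42) was positive and none negative. With median scaling the differences of Hs6st1, Klf4, Gfi1, Arg2, Sos1 and Lcn2 no longer passed, and those of Gab1 and Htr2b did. As 3 positive differences passed in all under that scaling, at most 1 of Fosl2, Egr2, Dusp1, Dusp5 and Gadd45a was among them.

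Of the 124 genes with a negative difference, 86 were higher and 4 lower in control cells labelled ATF3-/- than in control cells labelled WT, and 32 were higher and 40 lower after P3C. Of the 75 with a positive difference, 1 was higher and 39 lower in control cells, and 42 were higher and 7 lower after P3C. These comparisons share their arrays with the difference itself and describe where the groups lay.

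**Figure D5:**
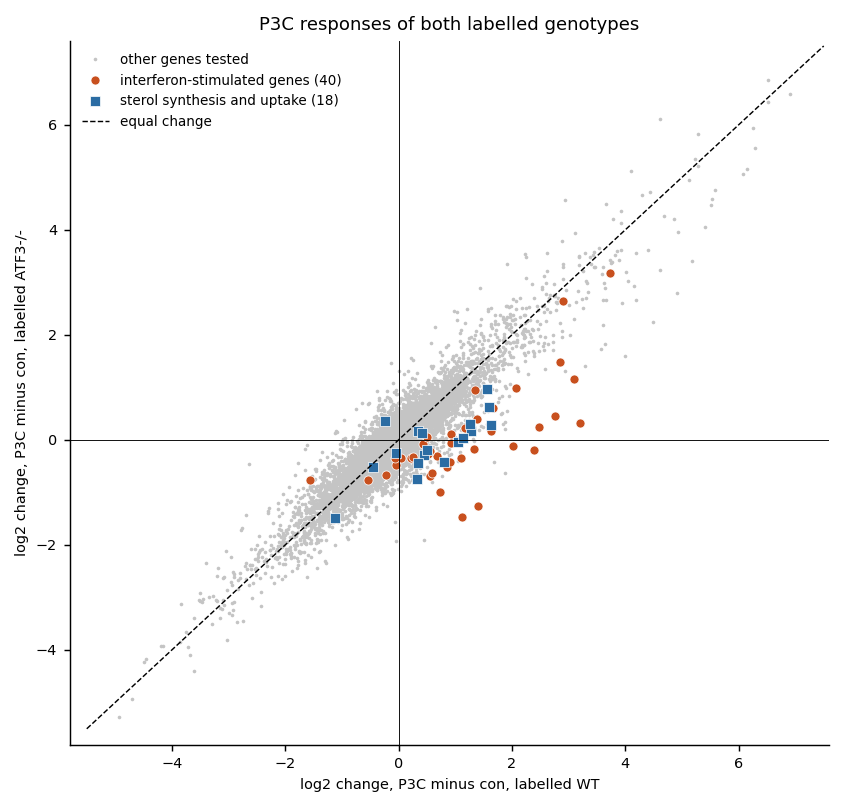
Log2 change after P3C in macrophages labelled ATF3-/- (y axis) against that in macrophages labelled WT (x axis) for 9213 genes, with 40 interferon-stimulated genes in orange, 18 sterol genes in blue and a dashed line of equal change. Most genes follow the line (r = 0.92), and the orange and blue points lie mostly below it.

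P3C was last compared with CpG in macrophages labelled ATF3-/-, to ask how the TLR2 and TLR9 ligands differed at these doses. The 2 groups differed in 152 genes, 1.65%, with 60 higher after P3C (0.651%) and 92 lower (0.999%), and 32 (0.347%) by at least 1 on the log2 scale. A fit on these groups alone left 4 genes and median scaling 16. The NF-kB family and the sterol genes had no member that passed, where lists of this size would hold few or none at 1.65%. Of the interferon-stimulated genes none was higher and 5 were lower after P3C, with a median of -0.47, and of the inflammatory cytokines and the chemokines 3 each were lower.

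Fam217b, a gene of unassigned function here, had 6.27, 5.90 and 6.13 after P3C, against 7.80, 7.90 and 7.44 after CpG (-1.61 ± 0.16, adjusted p = 1.69e-07). It was 7.11, 6.90 and 7.05 in control cells, so the ligands lay on opposite sides of the control. Ppp1r3d, a subunit that targets a phosphatase to glycogen, was also lower after P3C (-1.32 ± 0.13, adjusted p = 1.69e-07), and both still passed in the fit on these groups alone. Without the normexp correction the differences were -0.90 for Fam217b and -0.77 for Ppp1r3d. Ccl7 had 10.37, 9.83 and 10.50 after P3C, against 11.70, 11.21 and 11.74 after CpG (-1.32 ± 0.25, adjusted p = 0.0039), with -1.12 and -1.24 within chips 4 and 6, which carried both ligands. The cytokine Il19 (-1.40 ± 0.21) and the serine protease Htra4 (-1.70 ± 0.24) were lower as well, by less without that correction (-0.63 and -0.71). As the fit on these groups alone left 4 genes, not all of Ccl7, Il19 and Htra4 passed in it.

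Higher after P3C was Rasgrf1, an exchange factor for Ras, with 7.34, 7.44 and 7.25, against 5.59, 6.36 and 6.11 after CpG (1.33 ± 0.20, adjusted p = 0.000237, or 0.68 without the normexp correction). Smad3, a mediator of TGF-beta signals, had 8.93, 9.43 and 9.16 after P3C, against 7.72, 8.30 and 8.17 after CpG (1.11, adjusted p = 0.000594). In control cells Smad3 had 10.02, 9.83 and 10.08, so it was lower after both ligands; a second probe, at -0.39 after P3C, did not pass. The groups of both genes did not overlap, as was so for 15.1% of all genes, and neither gene passed in the fit on these groups alone.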

How the data were processed

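Total RNA was measured on Illumina mouse BeadChips, which hold 6 arrays each. The deposited table lists, per the file headers, the mean signal intensity of every probe on every array beside its detection p-value. Judged by their range, these intensities are linear and neither normalised between arrays nor background-corrected. Partek is named, with no version, in the submitters' processing notes, and further steps are not given in the sources used here. The deposited matrix of normalised intensity served as an alternative.

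All 36 arrays (12 groups of 3) of the experiment were processed together in R 4.3.3 with limma 3.58.1. The function neqc estimated background by normexp using detection p-values, with 16 as offset, followed by quantile normalisation and log2. Of 45281 probes, 34885 carried 1 gene symbol, 18 several and 10378 none. The probe with the highest mean signal stood for each of 19057 genes. The 9213 genes whose probe was detected (p under 0.01) on 3 or more arrays were tested. One model with a mean per group was fitted with lmFit and eBayes (24 residual degrees of freedom), and comparisons were contrasts of these means. The threshold was an adjusted p of 0.05, by Benjamini-Hochberg over all tested genes. Values are log2 signals, and changes are given with their standard error. The script was tested on simulated data with known changes.

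A gene detected on none of a group's arrays is called not above background there, and its fold is a lower bound. The bound sets the other group's mean against the mean of, per array, its own signal or that of the dimmest detected probe, whichever was higher. The number of arrays limits the precision. Positions of probes are not given, so none are printed. Plots were made in matplotlib 3.10.9 under Python 3.11.15.

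The members and the gene lists were chosen with earlier results of these data known, so a list is described by its counts and median beside all genes and is not tested. The genes named by rule were Atf3, the 10 largest rises and falls whose arrays do not overlap, the 4 largest changes of each list, 21 genes followed by name and the 8 largest differences in each direction for the other comparisons. Clone-name symbols were left out. Other genes belong to complete sets of list members that passed, or were chosen after their values were seen. Hmgcs1, Ifit1, Nfkb1 and Abca1 were not analysed here.

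Alternatives were no normexp correction, median scaling, the deposited matrix values, no detection filter or a stricter one, the mean of a gene's detected probes, the chip as a fixed or random effect, array weights, only the groups compared in the model, a change of at least 1 on the log2 scale, and leaving out each array in turn. Leaving out the first CpG array labelled WT, whose mean correlation with its group was 0.957, was added after seeing the data.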

Additional observations from a re-analysis of the deposited data

Results flagged for a closer look

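The P3C response differed between macrophages labelled ATF3-/- and WT for 199 genes by the contrast of both responses in limma, and each value below is that difference on the log2 scale, ATF3-/- minus WT. Of the named genes, 18 had a negative difference: Mx2 (-2.89), Cmpk2 (-2.67), Ifit2 (-2.59), Rsad2 (-2.57), Rnf213 (-2.51), Vcam1 (-2.39), Isg15 (-2.29), Cxcl10 (-2.25), Jdp2 (-1.83), Ifnb1 (-1.46), Gbp2 (-1.37), Ptges (-1.35), Rasgrf1 (-1.23), Msmo1 (-1.06), Hsd17b7 (-0.97), Bcl2a1b (-0.93), Tlr9 (-0.87) and Klf2 (-0.79). A positive difference was found for 9 of them: Gab1 (2.17), Gfi1 (1.63), Hs6st1 (1.59), Lcn2 (1.51), Arg2 (1.50), Klf4 (1.50), Htr2b (1.48), Sos1 (1.48) and Gadd45a (1.42). Those of Ifnb1, Ptges, Rasgrf1, Tlr9, Klf2, Gfi1, Lcn2, Arg2, Klf4, Htr2b and Sos1 are fitted values that rest in part on groups not above background. No chip held P3C arrays of both labels.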

How the results depend on the processing

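Of 4569 genes that passed after P3C, 1466 changed by at least 1 on the log2 scale. The count was 3126 with median scaling (26.5% of them higher, against 43.4%), 3860 with the chip as a fixed effect, 5835 with array weights and 4048 to 4244 without single arrays. The 199 differences between labels became 27 with median scaling (11.1% positive, against 37.7%; the median of all genes moved to -0.10, against 0.01), 117 with the chip as a fixed effect, 615 with array weights, 102 with at least 1 on the log2 scale and 140 to 180 without single arrays. The 152 genes between P3C and CpG became 16 with median scaling (12.5% higher after P3C, against 39.5%), 4 with only the compared groups, 32 with at least 1 on the log2 scale, 259 without the first WT CpG array and 95 to 213 without single arrays. The cause of these shifts was not tested. The NRF2 list median (0.06) was -0.14 with median scaling, -0.0536 with the chip as a fixed effect, -0.0055 with the chip as a random effect and between -0.0096 and 0.0983 without single arrays. With genes not above background set to their bound, list medians were 0.48 for AP-1 and ATF factors, 1.41 for the itaconate, nitric oxide and prostaglandin enzymes, 1.41 for surface molecules and -0.88 for cell cycle genes. Of 3368 recomputed values of named genes, 3275 kept their side of the threshold, 69 lost it, 24 gained it and 0 reversed; the number that moved by over 1.5 times was 73 of 193 without the normexp correction and 73 with the deposited matrix, each time towards 0, 18 with the chip as a fixed effect, 14 with median scaling, 12 with the mean of a gene's probes, 3 each with the chip as a random effect and with array weights, and 2 to 7 without a P3C or control array labelled ATF3-/-. No paired analysis was possible because the labels carry no replicate number that links an array of one group to an array of another.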
